A study of Mus musculus with 6 samples.

Results

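Potassium channel genes were taken as the 95 records, of 21540 in the deposited table, whose symbol begins with Kcn. They carry 92 symbols and were grouped by symbol into 21 families and 7 classes: voltage-gated alpha subunits (Kcna to Kcnd and Kcnq), the EAG type (Kcnh), silent alpha subunits (Kcnf, Kcng, Kcns and Kcnv), inward rectifiers (Kcnj), tandem-pore leak channels (Kcnk), calcium- or sodium-activated channels (Kcnn, Kcnma, Kcnt and Kcnu) and auxiliary subunits. The RNA came from the nucleus accumbens, a ventral striatal region of the reward circuit, of C57BL/6 mice. In 3 libraries the mice had been given cocaine intraperitoneally once a day at 20 mg/kg, in 3 they had been given saline, and the sample titles put both groups at 7 days of injection and 4 h of withdrawal. The labels do not give the age or sex of the mice, nor whether a library held RNA of 1 animal or of several, so the spread between libraries may be technical. The saline libraries carry the same treatment protocol wording as the cocaine ones, and their treatment label, title and the sample columns of the table, which name saline, were followed.

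Each record holds 1 value per group in FPKM (fragments scaled to transcript length and to the library total), a log2 fold change of cocaine over saline, a p-value and a q-value, all made by the authors. There is no value per library, so no SD can be given, and the read depth is unknown. The error beside a fold change is therefore an approximate 95% interval worked back from the deposited p-value, taking the test statistic as normal. How the authors' test estimated the spread is not given in the sources used here. A gene was called where the deposited q was below 0.05. Of the 95 records 77 were tested, and the other 18, from 15 symbols, were marked as not tested and reached at most 0.229 FPKM. These symbols are Kcna7, Kcna10, Kcne1 to Kcne4, Kcnh8, Kcnj1, Kcnk5, Kcnk15, Kcnk16, Kcnk18, Kcnn4, Kcnq1 and Kcnv2, and Kcnh8 fills 4 of the 18 records, as 2 pairs of values each listed under 2 identifiers. Of the 77 tested records 65 reached 1 FPKM in the higher group, the level used below, and 12 did not; all 65 also did so in the lower group, so 0 entered through 1 group alone. Markers of medium spiny neurons, the principal neurons of the region, stood between 63.3 and 1531 FPKM in their higher group, while the cortical marker Slc17a7 was at 49.9 FPKM in saline and 44.9 FPKM in cocaine. In bulk tissue fewer cells of a type and less RNA per cell cannot be told apart.

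Potassium channels let potassium ions leave or enter a cell along their gradient and so set the resting potential, the shape of the action potential and the pace of firing. Medium spiny neurons rest at a very negative potential held by inward rectifiers of the Kir2 group, among them Kcnj2, Kcnj4 and Kcnj12. A slowly inactivating current through Kv1 channels (Kcna1 and Kcna2) delays the spikes of these neurons. Kv1 channels carry cytoplasmic beta subunits (Kcnab genes) and Kv4 channels (Kcnd genes) carry KChIP proteins (Kcnip genes), while Kcnq genes encode subunits of the M channel that muscarinic receptors close.

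Kcna1 and Kcna2 were the 2 members that rose, and they are near relatives, so the stretch that codes for their ion filter is shown with those of another related pair to let their likeness be seen. The sequences are reference cDNA from GENCODE mouse release 21 (build GRCm38), 5′ to 3′, and the 9 capitals are the codons for the glycine-tyrosine-glycine filter that selects potassium. All lie in coding exons: Kcna1 on the minus strand of chromosome 6 (coding bases 1120 to 1128), Kcna2 on the plus strand of chromosome 3 (1126 to 1134), Kcnj2 on the plus strand of chromosome 11 (430 to 438) and Kcnj4 on the minus strand of chromosome 15 (403 to 411), where the bases in brackets are those in capitals.
Kcna1: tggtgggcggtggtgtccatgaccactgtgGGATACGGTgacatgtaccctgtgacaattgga
Kcna2: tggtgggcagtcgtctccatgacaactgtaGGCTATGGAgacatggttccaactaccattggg
Kcnj2: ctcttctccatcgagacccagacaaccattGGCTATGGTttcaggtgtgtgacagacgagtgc
Kcnj4: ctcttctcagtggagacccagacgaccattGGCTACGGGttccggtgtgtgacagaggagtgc

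Over these 63 bases Kcna1 and Kcna2 differed at 17 positions (73.0% identical) and shared no identical run longer than 8 bases. Kcnj2 and Kcnj4 differed at 8 positions, with a longest identical run of 13 bases. Across its annotated transcripts Kcna1 held no run of 36 bases that occurs in any other annotated gene on either strand, and in Kcna2 117 of 11827 such runs (0.989%) occur elsewhere, 30 of them in another potassium channel gene. The read length is not given in the sources used here. With runs of 50 bases the shares were 0% for Kcna1 and 0.515% for Kcna2. Of 91 members found in that annotation, 41 shared no run of 36 bases with another gene and 8 shared more than 10% of theirs, Kcnj13 the most.

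As a group, potassium channel transcripts differed little between saline and cocaine. Summed over the members they made up 0.254% of all FPKM in saline and 0.256% in cocaine (1426 and 1458 FPKM, a ratio of 1.02). Of the 77 tested records 2 passed in the authors' deposited table, Kcna1 and Kcna2, both higher, and 0 were lower. That is 2.60% of the members, against 1.23% of all 14959 tested records called in either direction and 0.521% called higher, and a count of 2 is too small to read as a property of the class. At an unadjusted p under 0.05, 7 members were higher (9.09%, against 2.02% of all tested records) and 2 were lower (2.60%, against 3.74%). Over the 65 members of at least 1 FPKM the median log2 fold change was 0.02, with 35 above 0 and 30 below. Over all 12976 tested records of that level it was -0.02, with 40.8% above 0. Of the 65, 59 lay within 0.2 of 0 on the log2 scale (90.8%, against 89.4% of all), and their differences ranged from -0.22 for Kcnj8 to 0.24 for Kcnh7.

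**Figure D1:**
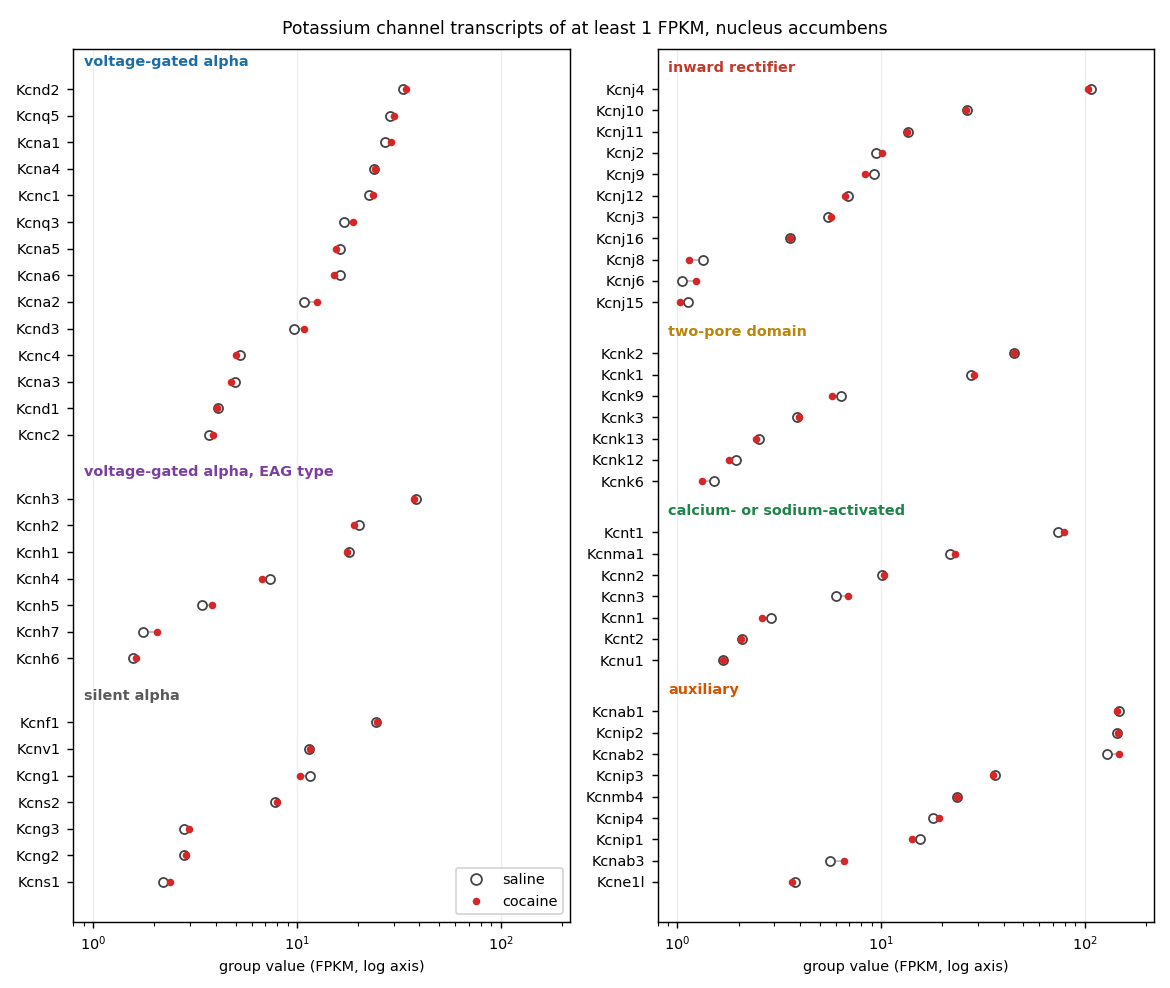
Group values in FPKM (log axis) of 62 of the 65 potassium channel genes of at least 1 FPKM, by class, with open circles for saline and filled circles for cocaine (1 authors' value per group, 3 libraries each). Levels span about 2 orders of magnitude, from near 1 FPKM for Kcnj15 to about 147 FPKM for Kcnab1 and Kcnab2, and most pairs of circles touch or overlap.

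The most abundant members were auxiliary subunits and neuronal pore subunits. Kcnab1, Kcnab2, Kcnip2 and Kcnj4 exceeded 100 FPKM on average, and 34 members exceeded 10 FPKM. Auxiliary subunits held 36.7% of the summed saline FPKM of all members, voltage-gated alpha subunits 24.6%, inward rectifiers 13.1%, calcium- or sodium-activated channels 8.33%, the EAG type 6.39%, tandem-pore channels 6.38% and silent subunits 4.49%. In cocaine the shares were 37.1%, 25.1%, 12.5%, 8.62%, 6.10%, 6.20% and 4.37% in the same order, none apart by a full percentage point. FPKM is a level per transcript length, so these shares compare genes of different length.

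Kv1 channels form the low-threshold current that holds back firing, and Kcna1 and Kcna2 were the members of the family that passed. Kcna1 stood at 27.0 FPKM in saline and 28.8 FPKM in cocaine. Its deposited log2 fold change was 0.10 (approximate 95% interval 0.06 to 0.14, q = 0.00115). Kcna2 stood at 10.8 FPKM in saline and 12.5 FPKM in cocaine. Its deposited log2 fold change was 0.21 (interval 0.10 to 0.31, q = 0.0143). Both were higher in cocaine, by 6.97% for Kcna1 and 15.5% for Kcna2, and these are small differences with narrow stated errors. Kcna4, which encodes an inactivating A-type subunit, had values of 23.9 in saline and 24.3 FPKM in cocaine, with p = 0.905 in the authors' deposited table. Kcna3, Kcna5 and Kcna6 had deposited log2 fold changes of -0.07, -0.07 and -0.11 and did not pass either. The intervals of Kcna3 (-0.28 to 0.15), Kcna4 (-0.34 to 0.38) and Kcna6 (-0.37 to 0.16) include the Kcna1 value. That of Kcna5 (-0.16 to 0.02) does not. An antisense transcript, Gm26673, covers 39.6% of the Kcna6 exon bases, and since no strand setting is given reads from that overlap cannot be assigned to either. Whether Kcna1 and Kcna2 differ from these relatives was not tested. Kcna7 and Kcna10 were not tested by the authors and lay under 0.1 FPKM.

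The beta subunits that bind Kv1 channels were among the most abundant members. Kcnab2 was at 129 FPKM in saline and 147 FPKM in cocaine, a deposited log2 fold change of 0.19 (interval 0.05 to 0.34). It had nearly the size of the Kcna2 difference but did not pass (p = 0.00924, q = 0.440 in the authors' deposited table). Kcnab1 was at 147 FPKM in saline and 144 FPKM in cocaine (log2 fold change -0.02, interval -0.13 to 0.09). Kcnab3 was at 5.62 and 6.62 FPKM with a wide interval of -0.18 to 0.65. Another annotated gene, Gm16334, lies on the same strand over 2.24% of the Kcnab2 exon bases.

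The M channel steadies the membrane between spikes. Its subunit gene Kcnq3 was at 17.0 FPKM in saline and 18.9 FPKM in cocaine (deposited log2 fold change 0.15, interval 0.05 to 0.24). In the authors' deposited table its q was over the threshold (p = 0.00230, q = 0.159), although its interval lay above 0 without adjustment over all records. Kcnq5, which can join the same channel, had 28.6 FPKM in saline and 29.9 in cocaine, with p = 0.211 in the authors' deposited table. Kcnq1, a heart and epithelial subunit, was not tested.

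Kv3 and Kv4 genes, which carry fast high-threshold and A-type currents, gave 0 calls among 7 tested records. Kcnd2, the main A-type subunit of dendrites, was at 33.3 and 34.2 FPKM, with a narrow interval of the deposited log2 fold change of -0.01 to 0.09. Kcnd3 was at 9.70 and 10.9 FPKM, a deposited log2 fold change of 0.17 close to that of Kcna2, but its interval ran from -0.42 to 0.75. Kcnc1 (22.6 and 23.7 FPKM) and Kcnc2 (3.70 and 3.88 FPKM) encode the fast channels of fast-spiking interneurons, and neither passed (p = 0.716 and 0.343 in the authors' deposited table). Kcnc4 was at 5.28 and 5.04 FPKM and Kcnd1, another A-type gene, at 4.08 and 4.04 FPKM. Of all 17 voltage-gated alpha subunits of at least 1 FPKM, 12 lay above 0 (70.6%), with a median of 0.06. Over all records of that level 40.8% lay above 0.

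**Figure D2:**
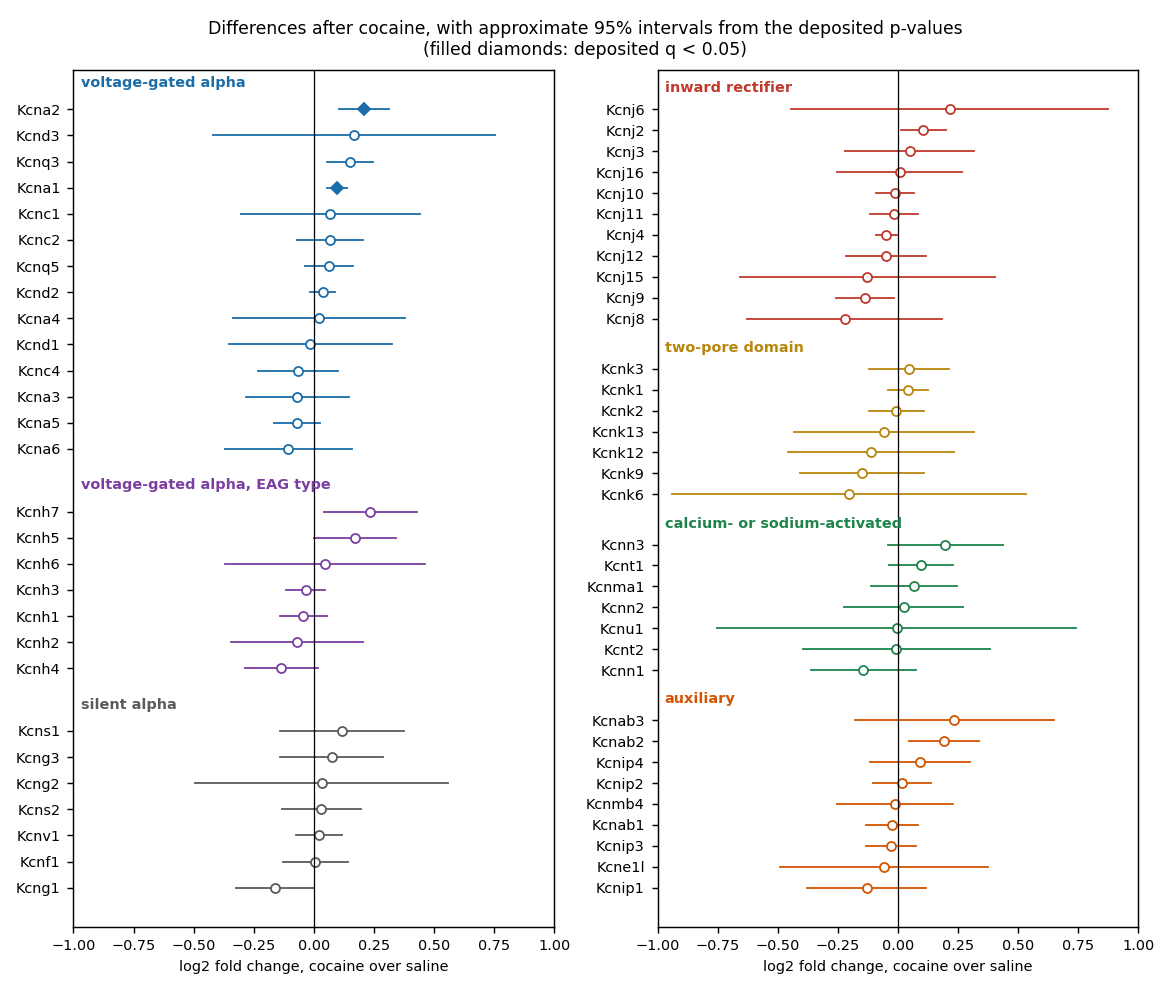
Deposited log2 fold change of cocaine over saline for 62 of the 65 genes of at least 1 FPKM, by class, with approximate 95% intervals worked back from the deposited p-values. Filled diamonds mark Kcna1 and Kcna2, the 2 records with a deposited q below 0.05, and most other intervals include 0.

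EAG-type and silent subunits gave 0 calls by the authors' deposited q, among 7 and 9 tested records. The ERG subunit gene Kcnh7 was at 1.75 FPKM in saline and 2.06 FPKM in cocaine (log2 fold change 0.24, interval 0.04 to 0.43, q = 0.648 in the authors' deposited table), and Gca lies opposite 4.57% of its exon bases. Kcnh5, of the EAG group proper, was at 3.41 and 3.84 FPKM (0.17, p = 0.0510 by the authors' deposited test), while the Elk gene Kcnh4 was at 7.41 and 6.75 FPKM (-0.13, p = 0.0807). The more abundant Kcnh3, Kcnh2 and Kcnh1 differed by at most 0.07 on the deposited log2 scale, at 38.5 and 37.6, 20.1 and 19.1, and 18.1 and 17.5 FPKM, and Kcnh6 was at 1.57 and 1.62 FPKM. Silent subunits conduct only after joining other alpha subunits. Among them Kcng1 was at 11.6 FPKM in saline and 10.3 FPKM in cocaine (-0.16, p = 0.0507 in the authors' deposited table), while Kcnf1 (24.6 and 24.7 FPKM) and Kcnv1 (11.5 and 11.7 FPKM) were nearly level. Kcns2 was near 8 FPKM in both groups, and Kcns1, Kcng2 and Kcng3 lay between 2.20 and 2.95 FPKM with differences of 0.03 to 0.12 on the deposited log2 scale.

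Inward rectifiers gave 0 calls among 14 tested records. Among the 11 of at least 1 FPKM 7 lay below 0 and 4 above. That is 36.4% above 0, near the 40.8% of all records of that level. Kcnj4, the most abundant Kir2 gene here, was at 107 FPKM in saline and 104 FPKM in cocaine (deposited log2 fold change -0.05, interval -0.09 to -0.004). Kcnj2, another Kir2 pore gene, was at 9.45 and 10.2 FPKM (0.11, interval 0.01 to 0.20). The unadjusted p-values were 0.0318 for Kcnj4 and 0.0269 for Kcnj2, in opposite directions, and neither passed in the authors' deposited table (q = 0.937 and 0.858). Kcnj12, also of the Kir2 group, was at 6.87 and 6.64 FPKM, a difference that did not pass. Removal of the trend with GC content and transcript length, described with its figure, took Kcnj4 from -0.05 to 0.02.

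GIRK genes encode the rectifiers that open when G-protein-coupled receptors such as the dopamine D2 and opioid receptors release their beta-gamma subunits. Kcnj9 was at 9.20 FPKM in saline and 8.37 FPKM in cocaine (log2 fold change -0.14, interval -0.26 to -0.02, p = 0.0252 and q = 0.830 in the authors' deposited table). Kcnj3 was at 5.47 and 5.66 FPKM and Kcnj6 at 1.06 and 1.23 FPKM, neither passing (p = 0.718 and 0.523 in the authors' deposited table). The lincRNA Gm26794 lies opposite 31.1% of the Kcnj3 exon bases. Kcnj11, the pore of the neuronal ATP-sensitive channel, was at 13.6 and 13.5 FPKM. Kcnj15 was near 1 FPKM in both groups. Kcnj5, known from the heart, and Kcnj14 were below that.

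Tandem-pore channels carry the background leak current and gave 0 calls among 10 tested records. Kcnk2, a channel opened by stretch and lipids, was at 45.2 FPKM in saline and 45.0 FPKM in cocaine, with an interval of -0.12 to 0.11 around a deposited log2 fold change of -0.01. Kcnk1, a weak rectifier, had 27.7 FPKM in saline and 28.5 in cocaine and did not pass. The acid-sensitive channels Kcnk9 and Kcnk3 were at 6.36 and 5.74 FPKM and at 3.85 and 3.98 FPKM, and by the authors' deposited test neither passed (p = 0.261 and 0.578). Kcnk12 was at 1.94 and 1.79 FPKM, and Kcnk4, Kcnk7 and Kcnk10 were below 1 FPKM.

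Calcium- and sodium-activated channels follow spikes with a slower outward current. The class grouped under that name by symbol gave 0 calls among 7 tested records. Kcnt1, the sodium-activated channel, was the highest at 73.9 FPKM in saline and 78.9 FPKM in cocaine (deposited log2 fold change 0.10, interval -0.04 to 0.23). Kcnma1, the large-conductance channel, had 21.9 FPKM in saline and 23.0 in cocaine and did not pass. By the authors' deposited test none of the small-conductance genes passed: Kcnn3 was at 6.04 and 6.93 FPKM (0.20, p = 0.107), Kcnn2 at 10.2 and 10.4 FPKM (p = 0.843) and Kcnn1 at 2.89 and 2.61 FPKM (-0.14, p = 0.194). Kcnmb4, the brain beta subunit of the large-conductance channel, was at 23.7 and 23.5 FPKM, and antisense transcripts overlap part of its exons. Kcnt2 (2.07 and 2.06 FPKM) and Kcnu1 (1.68 and 1.67 FPKM) were level. Kcnu1, best known from sperm, was placed in the class by its symbol and not by what opens it.

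KChIP subunits, which bring Kv4 channels to the membrane, did not pass in any of 4 genes by the authors' deposited q. Kcnip2 was at 143 FPKM in saline and 145 FPKM in cocaine (interval of the log2 fold change -0.10 to 0.14). Kcnip3, also known as the transcriptional repressor DREAM, was at 36.1 and 35.4 FPKM. Kcnip4 (18.0 and 19.2 FPKM) and Kcnip1 (15.5 and 14.2 FPKM) lay on either side of 0 (p = 0.384 and 0.304 in the authors' deposited table). Kcne1l, of the single-span Kcne subunits, was at 3.79 and 3.64 FPKM.

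The stated errors differed widely between members of like level. Worked back from the deposited p-values, the standard error of the log2 fold change ran from 0.02 for Kcna1 to 0.38 for Kcnu1, with a median of 0.09. It was smaller at higher levels across the 65 members (Spearman's rho -0.71, a description across genes that share libraries). Yet Kcnab2, above 100 FPKM, had 0.07 and Kcnj4, at a like level, 0.02, while Kcnd3 near 10 FPKM had 0.30 and Kcnj2 near 10 FPKM had 0.05. Kcna1 was called at a difference of 0.10 and Kcnab2 was not called at 0.19. The standard error had a rho of 0.07 with the number of annotated coding transcripts. Its median was 0.09 both in 24 genes with 1 such transcript and in 28 genes with 3 or more. These values take no account of level, and whether transcript number bears on the error was not tested. In 38 of the 65 genes the interval lay wholly within 0.32 of 0.

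**Figure D3:**
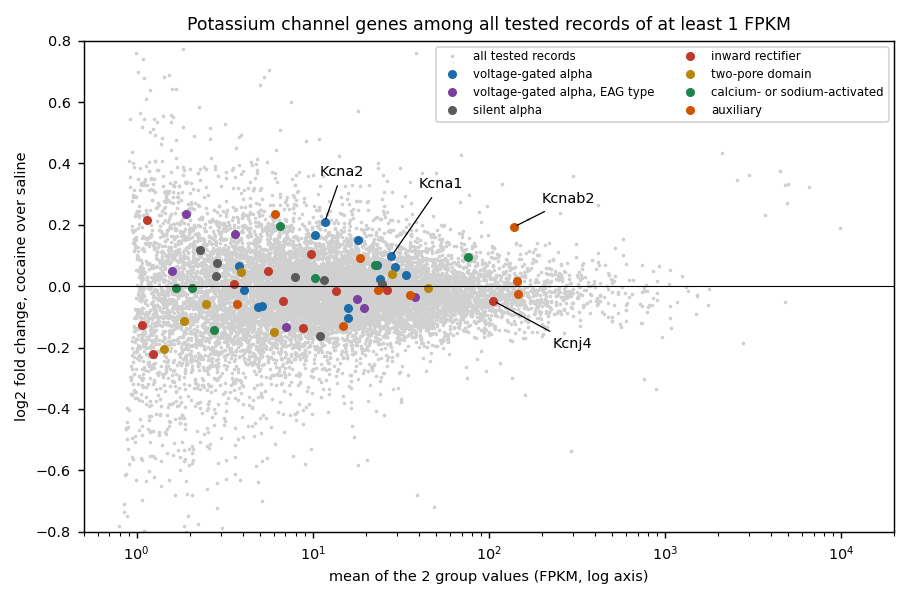
Log2 fold change against the mean of the 2 group values in FPKM (log axis) for 62 of the 65 potassium channel genes, coloured by class, over all tested records of at least 1 FPKM in grey. The channel genes lie inside the grey cloud, and Kcnab2, near 138 FPKM, stands at its upper edge.

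Across all records of at least 1 FPKM the fold change went down with GC content and up with transcript length (Spearman's rho -0.30 and 0.18 across genes), and the channel genes were read against this. In 64 members with a matched transcript the median GC content was 52.3%. The 32 with the lower GC content had a median deposited log2 fold change of 0.04, with 22 above 0, and the 32 with the higher content -0.04, with 13 above 0. Rank correlation across these 64 genes, which share libraries, came to -0.30 with GC content and 0.27 with transcript length. After the median of each cell of 10 GC by 10 length bins over all records was taken away, the median of the members was 0.03, with 46 of 64 above 0 (71.9%, against 49.8% of all). Kcna1 then stood at 0.12, Kcna2 at 0.17, Kcnab2 at 0.24 and Kcnq3 at 0.11. In the voltage-gated alpha class 15 of 17 lay above 0, and in the inward rectifiers 6 of 10. No p-value belongs to these corrected values.

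**Figure D4:**
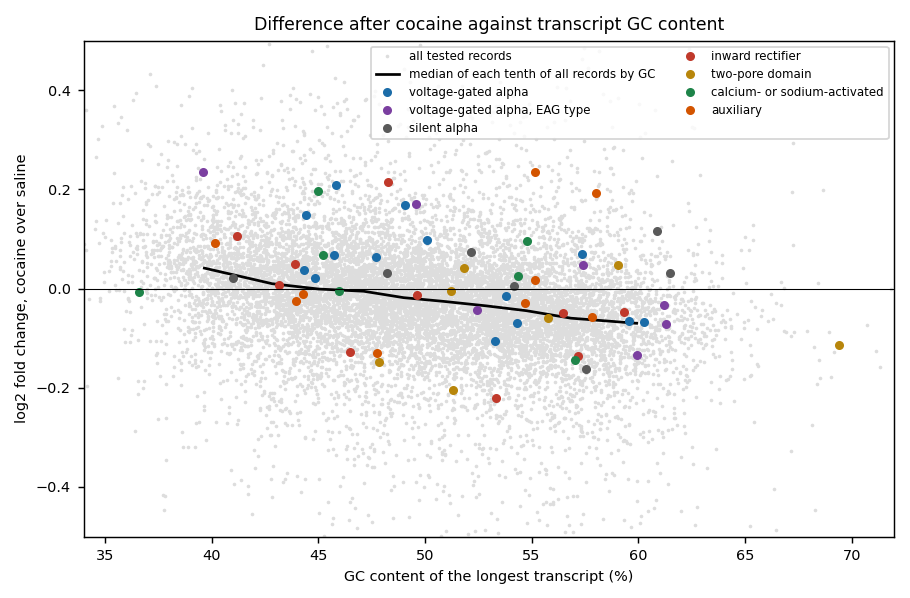
Deposited log2 fold change against GC content (%) of the longest annotated transcript for the same potassium channel genes where it was found, coloured by class, and for all tested records in grey. The black line joins the medians of 10 bins of all records by GC content and slopes down, and Kcnab2 and Kcnab3, near 58% and 55% GC, lie well above it.

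Some members are known from other cells of the tissue, and they were set beside markers of those cells. Kcnj13, which is strongly expressed by choroid plexus, was at 0.0658 FPKM in saline and 0.581 FPKM in cocaine, an 8.82-fold difference that did not pass (interval of the log2 fold change -0.48 to 6.76, p = 0.0890 in the authors' deposited table). Its log2 fold change of 3.14 became 0.57 once 1 FPKM was added to both values. The choroid plexus marker Ttr was at 0.668 FPKM in saline and 10.8 FPKM in cocaine and passed. It was the only 1 of 10 choroid plexus markers to do so (1.23% of all tested records passed), and 3 others, all under 0.2 FPKM, were not tested. Of the 10, 8 had deposited log2 fold changes above 0, among them Enpp2 at 0.10 and Folr1 at 1.40, the latter at 0.234 and 0.618 FPKM. Clic6 (-0.18) and Kl (-0.04) lay below 0. Of the 4 tested markers of at least 1 FPKM, 2 lay above 0 and 2 below, against 40.8% above 0 over all records of that level. The markers summed to 49.6 FPKM in saline and 62.5 FPKM in cocaine. Most of either sum was Enpp2 (39.9 and 42.8 FPKM), and most of the difference was Ttr. Clic6, the next highest in saline, was at 6.42 and 5.65 FPKM. Kcne2, also of choroid plexus, was not tested, at 0.0594 and 0.104 FPKM. Kcnj13 shares 49.1% of its exon bases with Gigyf2 on the opposite strand, which was at 31.9 and 29.4 FPKM, so without strand reads from that overlap cannot be assigned to either gene. The part of choroid plexus tissue in the Kcnj13 values was not tested.

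Kcnj8, the ATP-sensitive channel gene of pericytes and vascular muscle, was at 1.33 FPKM in saline and 1.14 FPKM in cocaine (log2 fold change -0.22, p = 0.286 in the authors' deposited table). All 9 mural markers had deposited log2 fold changes below 0 (summed 51.0 and 46.0 FPKM), and 0 of them passed. All 8 endothelial markers were also below 0 (47.8 and 39.7 FPKM), and Cldn5 passed. Of all tested records 1.23% were called, and 40.8% of those of at least 1 FPKM lay above 0. The part of mural and endothelial cells in the Kcnj8 value was not tested. Kcnj10, the potassium-buffering channel of astrocytes, was at 26.3 and 26.1 FPKM, with a narrow interval of -0.09 to 0.07, and its partner Kcnj16 at 3.58 and 3.60 FPKM. Astrocyte markers gave 0 calls among 8 by the authors' deposited q. Of these 8, 3 had an unadjusted p under 0.05, which 5.76% of all tested records had, and 2 of the 3 were higher. Kcnk13, of microglia, was at 2.53 and 2.43 FPKM and Kcnk6 at 1.52 and 1.32 FPKM, beside 0 calls among 8 microglial markers (2 of 8 below 0; smallest unadjusted p = 0.111 in the authors' deposited table). Kcnmb1, of smooth muscle, and Kcns3, of fast-spiking interneurons, were under 1 FPKM, as were Kcnmb2, Kcng4 and Kcnrg.

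**Figure D5:**
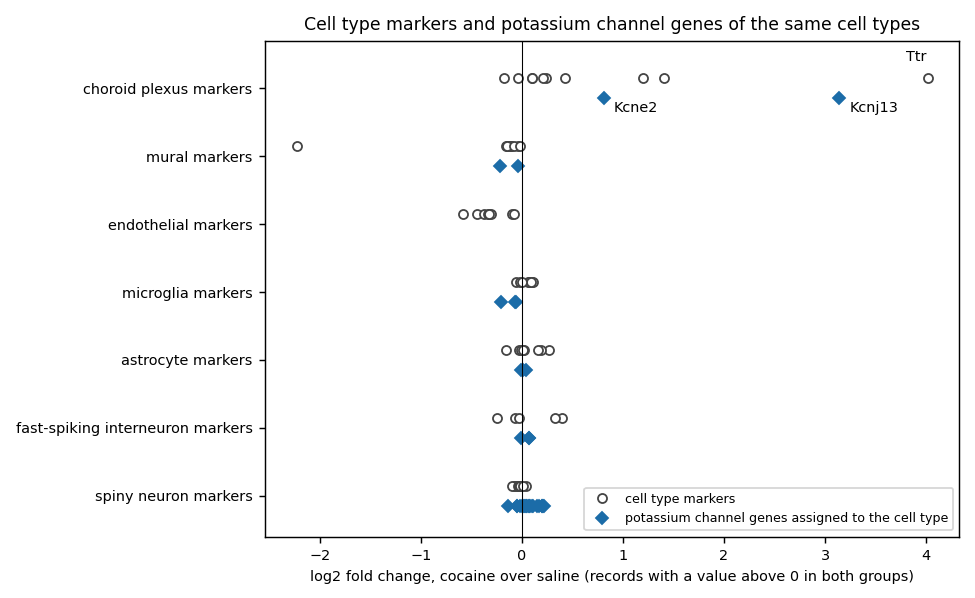
Log2 fold change of cocaine over saline for cell type markers (open circles) and potassium channel genes assigned to the cell types (filled diamonds). There is 1 row per cell type. The channel genes in the spiny neuron row are those listed for striatal neurons, a list not limited to spiny neurons. Ttr at 4.02 and Kcnj13 at 3.14 stand far to the right and the mural marker Anpep at -2.23 far to the left, with Kcne2, which was not tested, at 0.81, while the channel genes of the other cell types lie close to 0.

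Of 21 channel genes listed for striatal neurons, a list chosen with earlier results of these data known and not limited to spiny neurons, 2 were called and 16 lay above 0, with a median of 0.06, against 1.23% called over all tested records and 40.8% above 0 over those of at least 1 FPKM. The list holds 8 of the 9 members with an unadjusted p under 0.05, which 5.76% of all tested records had. Because the list was chosen with results known, these counts cannot show an excess among channels of striatal neurons. Spiny neuron markers gave 0 calls among 11 by the authors' deposited q, with 2 above 0 and a median of -0.03 (3 of the 11 had an unadjusted p under 0.05, all lower). With the GC and length trend removed, 6 of these 11 markers lay above 0, with a median of 0.005. The 21 listed channel genes then had 19 above 0 and a median of 0.05. The comparison of the 2 lists was not tested. Cortical markers, whose cells also express many of these channels, summed to 273 FPKM in saline and 257 FPKM in cocaine. All 6 had deposited log2 fold changes below 0, with Slc17a7 passing. Most of either sum was Nrgn (213 and 205 FPKM, -0.06). With the GC and length trend removed Nrgn stood at 0.02, the only 1 above 0 of the 5 cortical markers of at least 1 FPKM. The part of cortical cells in the channel values was not tested.

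Genes for partners and regulators of these channels that do not bear the Kcn name were read from a list of 37. This list was also chosen with earlier results of these data known, so its counts cannot show an excess over all records. Of 35 tested, 2 rose and 0 fell in the authors' deposited table, and all 4 with an unadjusted p under 0.05 were higher. Of all tested records 0.521% were called higher, and 2.02% were higher and 3.74% lower at that unadjusted p. Rgs7bp, which anchors R7 RGS proteins that speed the closing of GIRK channels, rose from 33.8 to 36.1 FPKM (deposited log2 fold change 0.09, interval 0.05 to 0.14, q = 0.0168). Without the GC and length trend it stood at 0.04. Lynx1, whose best known partners are nicotinic acetylcholine receptors and not potassium channels, rose from 49.2 to 52.2 FPKM (0.09, q = 0.0286), and it stood at 0.14 without that trend. Dlg2, a scaffold that clusters Kv1 channels, was at 77.8 and 85.8 FPKM (0.14, p = 0.00760 and q = 0.387 in the authors' deposited table), and Ank3, which holds M channels at the axon initial segment, at 47.5 FPKM in saline (0.07, p = 0.0281, q = 0.871). The Kv4 partner Dpp6 was level at 76.4 and 76.3 FPKM, the Kv1 partner Cntnap2 was at 62.4 and 61.9 FPKM, and Dpp10 has a failed estimate. Of the 34 of at least 1 FPKM 26 lay above 0, with a median of 0.02, against 40.8% above 0 and a median of -0.02 over all records of that level.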

How the data were processed

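RNA-seq of 3 saline and 3 cocaine libraries was read from a single gene table. Alignment and quantification tools named in the submitters' processing notes are TopHat2 2.0.6 and Cufflinks 2.0.2, with build NCBIM37; settings and strandedness were not stated. FPKM values per group, log2 fold changes, p-values and q-values were made and deposited by the authors; FPKM is taken from the table's layout. Computed from these were medians, sums (records identical under 2 identifiers counted once), pseudocount ratios, approximate intervals and values with the GC and length trend removed, in Python 3.11.15 with scipy 1.17.1. GC, length, shared runs and overlaps came from GENCODE mouse release 21, a later build, so no genome coordinates are given; GC was found for 97.4% of records of at least 1 FPKM. The calculations were checked on simulated data. Families, lists and members were chosen with earlier results of these data known. Genes were named where q or unadjusted p was under 0.05, for the 5 largest differences each way, the 3 highest per class, and listed genes; others were named after their values were seen. The shared-run, overlap and error descriptions were added after the data were seen. A few members enter the counts and sums but are not reported by name or drawn here. Depth is unknown, so no counting interval was computed.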

Additional observations from a re-analysis of the deposited data

How the results depend on the processing

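With a threshold of q < 0.01 the count of called members went from 2 to 1 (Kcna1), and it was 2 at q < 0.10 and after Benjamini-Hochberg adjustment was recomputed over all tested records or over those of at least 1 FPKM. The median log2 fold change of the members, 0.017, was 0.0060 with no filter on low values, 0.021 at a minimum of 5 FPKM, 0.0166 and 0.0167 with pseudocounts of 1 and 0.1, 0.038 when centred on all tested records, 0.0172 with totals equal outside the mitochondrial genome, and 0.028 after subtraction of the GC and length trend. The ratio of summed FPKM went from 1.0223 to 1.0227 with equal totals. The 2 partner calls numbered 2 under each alternative run. Among the genes picked by the naming rule, partners included, the sign changed in 7 of 46 with the trend removed and in 4 of 50 when centred, none of them called; among all 64 members of at least 1 FPKM with GC content it changed in 13 with the trend removed. No paired analysis was possible because the table holds 1 value per group, and for the same reason no library could be left out. Depth is unknown, so it cannot be said what difference would have been detectable in members under 1 FPKM.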
